A study of Mus musculus with 6 samples.

Results

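Expression of 34 genes of the integrated stress response and of the mitochondrial protein-folding system was examined in articular cartilage of knockout (KO) and wildtype (WT) mice. The members were the rows of the deposited gene table, 34 of 34709, whose gene name equalled a name on a list. They comprised 26 genes of the ATF4 pathway and 8 mitochondrial chaperones and proteases. RNA sequencing had been performed on 6 libraries, 3 labelled KO and 3 labelled WT. Per the study, the sequenced cartilage came from aged mice, with no treatment named. Its methods give male mice, and littermates for the age-related osteoarthritis model of both genotypes. The KO mice came from a purchased C57BL/6J line for which no restriction of the deletion to a cell type was stated. The labels do not say whether the libraries of a group came from separate animals, and p-values therefore measure only the spread between these samples.

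In the integrated stress response, kinases that sense lack of haem, unfolded protein in the endoplasmic reticulum or lack of amino acids phosphorylate the translation factor eIF2. General protein synthesis then falls, while the messenger RNA of the transcription factor ATF4 is translated more, and ATF4 switches on genes for amino acid synthesis, amino acid import and feedback. Mitochondrial stress is known to feed into the same pathway and can also raise the chaperones and proteases of the mitochondrial matrix. Since ATF4 is controlled to a large extent at translation, its transcript level alone is not a measure of its activity.

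Some properties of the libraries touched every result. Total counts were between 52268311 and 63331135. KO replicates 2 and 3 were far closer to each other (Pearson's r of 0.994 across genes) than any other pair of libraries, and their mean was used as 1 sample, so that 2 KO samples were compared with 3 WT samples. The tissue label was cartilage, and the defining cartilage gene Col2a1 was at 12.4 to 21.3 FPKM (fragments per kilobase of transcript, scaled to library size) and Matn3 at 0 to 0.20 FPKM. Other chondrocyte markers were higher, with Prg4 at 402.3 to 1034 FPKM, Chad at 70.3 to 230.4 FPKM and Comp at 41.0 to 109.2 FPKM. Chondrocyte markers summed to 638.1 to 1447 FPKM in KO and 614.4 to 837.3 FPKM in WT, with Prg4 the largest term. The erythroid markers summed to 25090 to 60820 FPKM in KO and 71890 to 108800 FPKM in WT. Neutrophil markers summed to 50750 to 61890 FPKM in KO and 26490 to 43220 FPKM in WT, with 12 of 12 higher in KO, and B cell markers to 95.4 to 147.9 FPKM in KO and 299.6 to 338.1 FPKM in WT, with 12 of 12 lower. In such bulk samples, fewer cells of a type and less RNA per cell cannot be told apart. The summed levels of these blood cell markers thus differed with the group label. In the 5-sample edgeR fit described below, 0 of the single markers passed an adjusted p of 0.05. With the 6 libraries as labelled, 11 of 12 B cell, 5 of 12 neutrophil and 1 of 11 erythroid markers did (all genes 3.71%). The part of blood cell markers in the results that follow was not tested.

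Of the 34 members, 33 had a mean of at least 0.5 FPKM and were tested among 15373 genes. None of the 33 passed an adjusted p of 0.05 by edgeR's quasi-likelihood test, where the share over all genes was 0.0%. The lowest adjusted p of a member was 0.234 (edgeR) for Trib3. At an unadjusted p under 0.05, 1 member was higher in KO (all genes 7.63%) and 1 was lower (all genes 6.07%), namely Trib3 and Ppp1r15a. With the 6 libraries taken as labelled, 3.71% of all genes passed the adjusted threshold and 0 members did, with a lowest adjusted p of 0.0597 (edgeR). DESeq2 on the 5 samples also called 0 members (all genes 5.72%). The groups did not overlap in FPKM for 1 member higher in KO (all genes 11.3%) and 5 members lower in KO (all genes 13.7%), so these shares of the 33 members were near or under the background. The levels of the ATF4 pathway genes in each library are plotted next.

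**Figure D1:**
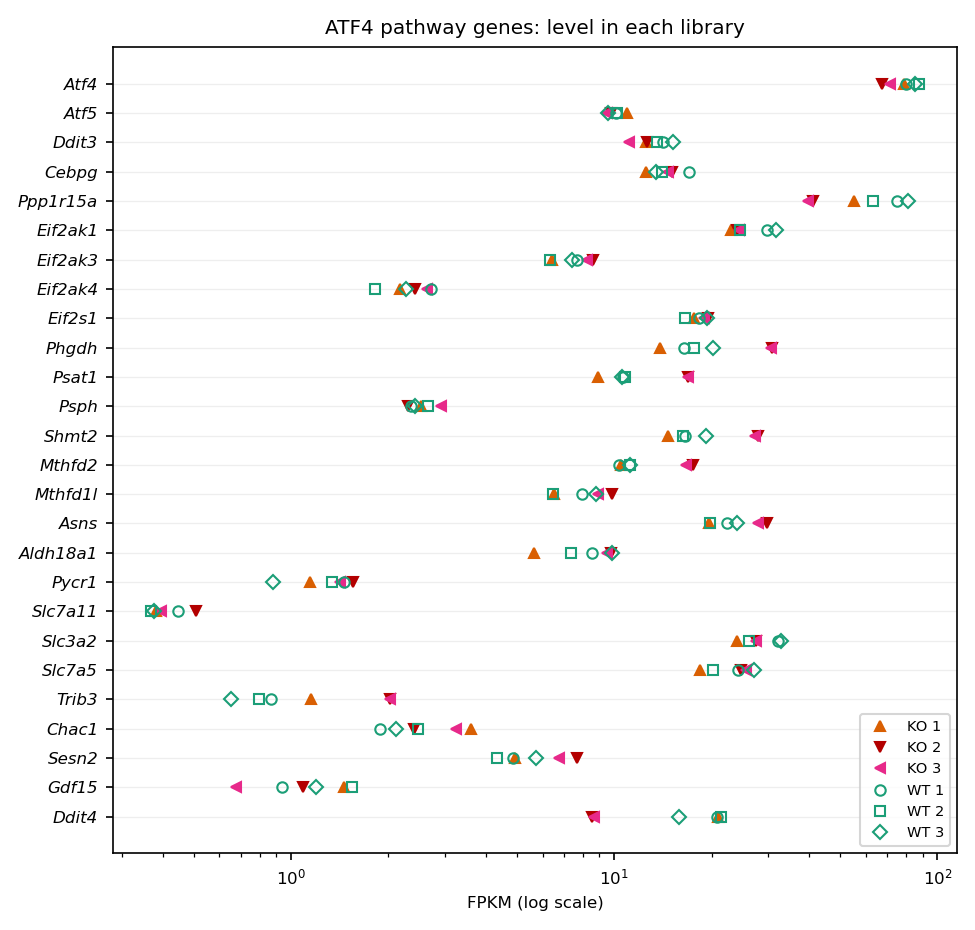
FPKM of the 26 ATF4 pathway genes (rows, log axis) in each library, with filled triangles for the KO libraries and open symbols for the WT libraries. For Phgdh, Psat1, Shmt2 and Mthfd2 the symbols of KO replicates 2 and 3 stand to the right of all WT symbols and KO replicate 1 does not, and for Ddit4 they stand to the left.

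The ATF4 pathway genes showed no common shift. Of the 25 tested, 15 were higher and 10 lower in KO, with a median log2 difference of 0.07, against -0.02 over all tested genes. Their log2 differences ran from -0.58 (Ppp1r15a) to 1.05 (Trib3). KO replicate 1 and the pair of KO replicates 2 and 3 differed from each other more than the groups did for many of the genes. Without KO replicate 1 the median was 0.12, and with KO replicate 1 as the lone KO sample it was -0.07.

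Sequences that carry the best-known ATF4 control element are shown because they mark which members hold it next to their start. The C/EBP-ATF response element was searched as its core, TGATGNAA, on both strands in RefSeq promoter windows of GRCm38.p6. It was found in 3.97% of 32851 windows and in 5 of the 32 member genes that had a window. Each sequence is given 5′ to 3′ on the strand of its gene, with the core in capitals, either as such or as its reverse complement.
Chac1, chr2:119351038-119351067, plus strand: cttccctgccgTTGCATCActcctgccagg
Trib3, chr2:152344028-152344057, minus strand: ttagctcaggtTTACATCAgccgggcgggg
Slc7a11, chr3:50443651-50443680, minus strand: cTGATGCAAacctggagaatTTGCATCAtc
Asns, chr6:7693214-7693243, minus strand: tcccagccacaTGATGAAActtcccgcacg
Pycr1, chr11:120643833-120643862, minus strand: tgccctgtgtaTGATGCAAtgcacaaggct
The Slc7a11 stretch held the core on both strands. The fitted log2 differences were 0.60 for Chac1, 1.05 for Trib3, 0.15 for Asns and 0.12 for Pycr1, and Slc7a11 was under the FPKM limit of the test. All 4 were positive in the 5-sample fit, Asns and Pycr1 were negative with KO replicate 1 alone, and 0 of the 4 passed the test. A match describes letters in the window and is not a measured binding site.

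Among the transcription factors of the pathway, Atf4 (ENSMUSG00000042406, chromosome 15, 80255184 to 80257541, GRCm38), the central activator, had the highest WT mean of all members in FPKM, 84.1 ± 3.99 (SD, n = 3), followed within the spread by Hspd1 with 77.8 ± 6.77. Its level was 78.6, 67.3 and 71.1 FPKM in KO replicates 1 to 3 and 79.7, 87.5 and 85.0 FPKM in WT replicates 1 to 3. The groups did not overlap in FPKM, but KO replicate 1 came close to the lowest WT library, and they did overlap after TMM scaling. The log2 difference was -0.16 (SE 0.150, adjusted p = 0.731, edgeR), and it was -0.32 without KO replicate 1 and -0.02 with KO replicate 1 alone. Ddit3 (chromosome 10, 127290774 to 127296288), which encodes the pro-apoptotic factor CHOP, had 12.6, 12.6 and 11.1 FPKM in KO and 14.2, 13.6 and 15.2 FPKM in WT. Every KO library lay under every WT library, on both scales, at a log2 difference of -0.21 (SE 0.147, adjusted p = 0.623, edgeR). Atf5, a related factor linked to the mitochondrial stress response, and Cebpg, a dimer partner of ATF4, overlapped between the groups, with log2 differences of 0.07 and -0.10. Ddit3 overlaps Mars1 on the other strand and Atf5 overlaps Nup62, and as the use of strand in counting was not stated, the values of both are uncertain.

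Of the genes that set and reset eIF2 phosphorylation, Ppp1r15a (ENSMUSG00000040435, chromosome 7, 45522916 to 45526268) stood out. It encodes GADD34, the inducible subunit that directs a phosphatase to eIF2, and had 55.4, 41.1 and 39.7 FPKM in KO and 74.8, 63.3 and 81.2 FPKM in WT. All KO libraries were lower than all WT libraries, and KO replicate 1 lay nearest to WT. The means were 47.9 ± 10.6 FPKM (SD, n = 2) and 73.1 ± 9.04 FPKM (SD, n = 3), a fold of 0.670 in the fit (log2 difference -0.58, SE 0.197, adjusted p = 0.267, edgeR). Without KO replicate 1 the log2 difference was -0.89 (adjusted p = 0.0572, edgeR), and with KO replicate 1 alone it was -0.32. Over all alternatives the adjusted p was between 0.0572 and 0.604.

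Eif2ak1 (chromosome 5, 143817788 to 143904251) encodes HRI, the haem-regulated kinase that is abundant in red cell precursors. Its level was 23.04, 23.9 and 24.4 FPKM in KO and 29.7, 24.6 and 31.8 FPKM in WT. WT replicate 2 was only just above the KO libraries, and the log2 difference of -0.26 (SE 0.138) did not pass (adjusted p = 0.482, edgeR). The erythroid markers were also lower in KO, in 11 of 11 genes. The kinases of the endoplasmic reticulum and of amino acid sensing, Eif2ak3 (PERK) and Eif2ak4 (GCN2), and the substrate Eif2s1 (eIF2 alpha) had log2 differences of 0.07, 0.07 and 0.05, each smaller than its SE. All 3 overlapped between the groups. Of 13 other genes of the eIF2 machinery, 6 were higher and 7 lower, with a median log2 difference of -0.06, and none passed the adjusted threshold. Impact, an inhibitor of GCN2 activation, was at -0.27, Ppp1r15b, the constitutive counterpart of Ppp1r15a, at 0.21 and Oma1, a mitochondrial protease that signals to HRI, at 0.23.

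The enzymes of serine synthesis and of the mitochondrial one-carbon pathway differed between the KO libraries more than between the genotypes. Phgdh (ENSMUSG00000053398, chromosome 3, 98313170 to 98339990), which catalyses the entry step from glycolysis into serine, had 13.9, 30.8 and 30.6 FPKM in KO and 16.4, 17.6 and 20.2 FPKM in WT. The level in KO replicates 2 and 3 was above all WT libraries, and that in KO replicate 1 was under them all. Psat1 (chromosome 19, 15904678 to 15947337), the next enzyme of the route, had 8.90, 16.9 and 16.9 FPKM in KO and 10.7, 10.8 and 10.5 FPKM in WT, so its 3 WT libraries were almost equal while KO libraries lay on both sides. Shmt2 (chromosome 10, 127517123 to 127522444), which splits serine in mitochondria, had 14.6, 27.8 and 27.3 FPKM in KO and 16.5, 16.3 and 19.2 FPKM in WT. This was again the Phgdh pattern. Mthfd2 (chromosome 6, 83305691 to 83317606), which oxidises the released one-carbon unit, had 10.5, 17.5 and 16.7 FPKM in KO and 10.3, 11.2 and 11.2 FPKM in WT, and here KO replicate 1 was within the WT range.

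In the 5-sample fit these 4 enzymes had log2 differences of 0.30 (Phgdh, SE 0.282), 0.28 (Psat1, SE 0.227), 0.29 (Shmt2, SE 0.230) and 0.34 (Mthfd2, SE 0.191), with adjusted p from 0.506 to 0.739 (edgeR). Without KO replicate 1 they were 0.73, 0.63, 0.63 and 0.61, with adjusted p of 0.0748, 0.0644, 0.0818 and 0.0850 (edgeR), and 0 of the 4 passed the threshold. Over all alternatives the adjusted p of Phgdh, for example, was between 0.0748 and 0.912. With KO replicate 1 as the only KO sample they were -0.30, -0.18, -0.16 and 0.02. The other enzymes of the group, Psph, the last step of serine synthesis, and Mthfd1l, the formate-producing step, had log2 differences of 0.07 and 0.05. Psph, at 2.31 to 2.92 FPKM, overlaps Cct6a (mean 40.8 FPKM) on the other strand and is uncertain for that reason.

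Over the 6 enzymes, 6 were higher in KO in the 5-sample fit and 0 passed the test, with a median log2 difference of 0.28. KO replicates 2 and 3 exceeded all WT libraries, with KO replicate 1 not doing so, in 5 of the 6, where 18.8% of all genes had this arrangement. Over all members it was seen in 10 of 33, of which 8 were among the 25 ATF4 pathway genes. The summed level of the 6 enzymes was 56.9 FPKM in KO replicate 1, 105.1 and 103.3 FPKM in KO replicates 2 and 3, and 64.2, 65.0 and 72.3 FPKM in the WT libraries. As KO replicates 2 and 3 count as 1 sample, the pattern rests on a single sample. Markers of cell types and of proliferation also separated the KO libraries, in both directions. Erythroid markers summed to 60820 FPKM in KO replicate 1 and to 25360 and 25090 FPKM in KO replicates 2 and 3. Proliferation markers summed to 402.7 FPKM in KO replicate 1, 477.1 and 475.7 FPKM in KO replicates 2 and 3 and 412.3 to 507.4 FPKM in WT. Chondrocyte markers summed to 1447 FPKM in KO replicate 1 and to 638.1 and 647.7 FPKM in KO replicates 2 and 3, and skeletal muscle markers to 137.3 FPKM in KO replicate 1, 4.37 and 3.57 FPKM in KO replicates 2 and 3 and 32.0 to 257.5 FPKM in WT. The neutrophil markers summed to 61890 FPKM in KO replicate 1 and to 50750 and 51950 FPKM in KO replicates 2 and 3. S100a9 and S100a8 were the largest terms of this sum in every library. Single markers ran both ways. S100a8, S100a9 and Camp were higher in KO replicate 1 than in KO replicates 2 and 3. Ngp was nearly level, at 7546 FPKM in KO replicate 1 and 7464 and 7513 FPKM in KO replicates 2 and 3. Mpo, Elane, Prtn3, Ctsg, Ltf, Lcn2, Mmp8 and Cxcr2 were lower in KO replicate 1. S100a8 and Mpo, chosen after their values were seen, are given as examples. S100a8 was at 16320 FPKM in KO replicate 1, against 11790 and 12090 FPKM in the other KO libraries. Mpo was at 343.0 FPKM in KO replicate 1, 620.4 and 611.3 FPKM in KO replicates 2 and 3, and 239.7 to 257.6 FPKM in WT. All KO libraries were above all WT libraries in FPKM for 11 of the 12 neutrophil markers (all genes 11.3%). The part of these markers in the enzyme pattern was not tested.

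**Figure D2:**
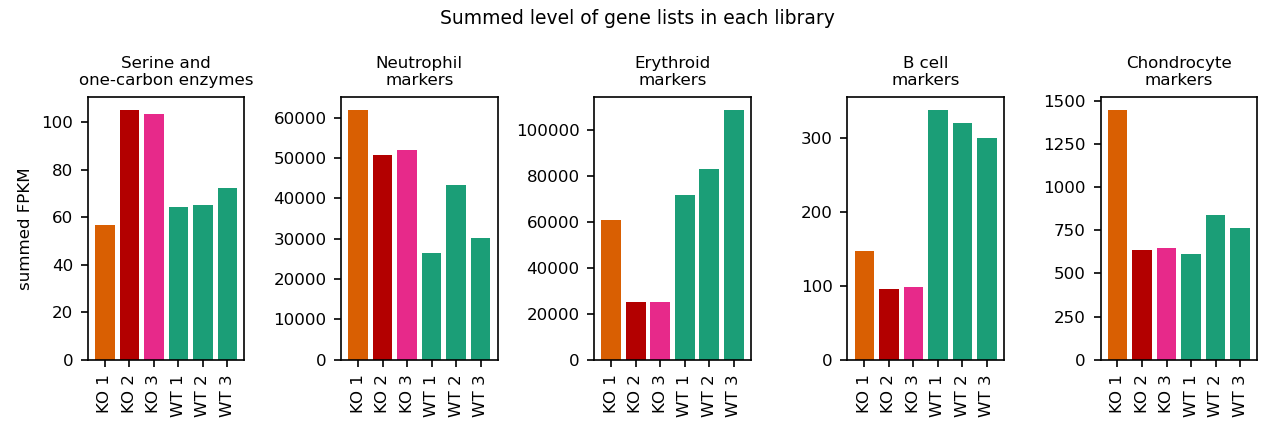
Summed FPKM (bars from 0) of the 6 serine and one-carbon enzymes and of 4 lists of cell type markers in each of the 6 libraries. The enzymes reach 105.1 and 103.3 FPKM in KO replicates 2 and 3 and 56.9 FPKM in KO replicate 1, while neutrophil markers are higher and erythroid and B cell markers lower in all KO libraries than in all WT libraries.

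The asparagine and proline enzymes followed the same split in part. Asns (ENSMUSG00000029752, chromosome 6, 7675169 to 7693254), asparagine synthetase and a classical ATF4 target, had 19.7, 29.7 and 27.9 FPKM in KO and 22.4, 19.8 and 23.9 FPKM in WT. KO replicate 1 was just below the WT libraries and the other KO libraries above them, and the log2 difference was 0.15 (SE 0.161, adjusted p = 0.785, edgeR). Aldh18a1 and Pycr1, the first and last enzymes of proline synthesis, had log2 differences of -0.16 and 0.12. Aldh18a1 overlaps the processed pseudogene Gm15801 (mean 3.77 FPKM) on the same strand and is uncertain for that reason. Of 12 aminoacyl-tRNA synthetases, which charge tRNAs with amino acids and include many ATF4 targets, 6 were higher and 6 lower, with a median log2 difference of -0.006. None passed the adjusted threshold, and 7 of the 12 were above all WT libraries in KO replicates 2 and 3 alone (all genes 18.8%). The 3 with the smallest unadjusted p were Lars (0.14), Gars (0.13) and Aars (-0.06), given as log2 differences.

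Amino acid transporters were not higher in KO. Slc3a2 (chromosome 19, 8706882 to 8723369), the heavy chain shared by several amino acid exchangers, had 24.0, 27.5 and 27.5 FPKM in KO and 32.2, 26.1 and 32.9 FPKM in WT. WT replicate 2 lay among the KO libraries in FPKM, though above them all after TMM scaling, and the log2 difference was -0.22 (SE 0.131, adjusted p = 0.547, edgeR). Its partner Slc7a5, the large neutral amino acid exchanger, had a log2 difference of -0.11, which was 0.045 without KO replicate 1. The cystine exchanger Slc7a11 was at 0.37 to 0.51 FPKM in all libraries and missed the limit of 0.5 FPKM, although its counts of 311 to 500 per library exceeded those of Trib3. In the fit with no filter its log2 difference was 0.13 (SE 0.242, adjusted p = 0.914, edgeR).

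Among effector and feedback genes, Trib3 (ENSMUSG00000032715, chromosome 2, 152337422 to 152344032) had the largest difference of all members. It encodes a pseudokinase that is induced by ATF4 and dampens it, and had 1.15, 2.03 and 2.02 FPKM in KO and 0.87, 0.79 and 0.65 FPKM in WT. All KO libraries were above all WT libraries, although the levels were low and KO replicate 1 was nearest to WT. The means were 1.59 ± 0.618 FPKM (SD, n = 2) and 0.770 ± 0.109 FPKM (SD, n = 3), and the fit gave a fold of 2.07 (log2 difference 1.05, SE 0.323, adjusted p = 0.234, edgeR). The log2 difference was 1.35 without KO replicate 1 (adjusted p = 0.0910, edgeR) and 0.66 with it as the lone KO sample, so the direction was kept. Over all alternatives the adjusted p was between 0.0597 and 0.596.

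Chac1 (chromosome 2, 119351229 to 119354381), which degrades glutathione, had 3.60, 2.39 and 3.24 FPKM in KO and 1.89, 2.46 and 2.10 FPKM in WT. KO replicate 2 lay within the WT range, and the log2 difference was 0.60 (SE 0.275, adjusted p = 0.408, edgeR), with 0.35 without KO replicate 1 and 0.82 with it alone. Sesn2 (chromosome 4, 132492032 to 132510501), a leucine sensor that restrains mTORC1, had 4.93, 7.65 and 6.74 FPKM in KO and 4.87, 4.34 and 5.72 FPKM in WT. KO replicate 1 was within the WT range and the other KO libraries above it, at a log2 difference of 0.30 (SE 0.195, adjusted p = 0.592, edgeR), which was 0.50 without KO replicate 1 and 0.07 with it alone. Ddit4 (ENSMUSG00000020108, chromosome 10, 59949669 to 59951834), another inhibitor of mTORC1, which also responds to hypoxia and glucocorticoids, had 20.9, 8.55 and 8.68 FPKM in KO and 20.8, 21.5 and 15.9 FPKM in WT.

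For Ddit4, KO replicate 1 was thus at the WT level, while KO replicates 2 and 3 were below every WT library, as was so for 1 member only (all genes 12.1%). Its log2 difference was -0.35 (SE 0.376, adjusted p = 0.778, edgeR) in the 5-sample fit, -1.21 without KO replicate 1 (adjusted p = 0.0599, edgeR) and 0.19 with KO replicate 1 alone. Over all alternatives the adjusted p was between 0.0599 and 0.910. Ddit4 and Phgdh were the members whose KO replicate 1 lay farthest from KO replicates 2 and 3, by 1.28 and -1.14 on the log2 FPKM scale. Gdf15, a secreted stress hormone, was low throughout, at 0.67 to 1.55 FPKM, with a log2 difference of -0.04. Of 23 other ATF4 target genes in the table, 19 were tested, of which 9 were higher and 10 lower, with a median log2 difference of -0.07. None of these passed the adjusted threshold. The 3 with the smallest unadjusted p were Cebpb, a transcription factor of myeloid and fat cells, Slc6a9, a glycine transporter, at -0.45, and Mthfd1, the cytosolic one-carbon enzyme, at -0.38. The Cebpb difference of 1.74 came from KO replicate 1, at 26.8 FPKM, against 9.39 and 4.62 FPKM in the other KO libraries and 3.60 to 6.08 FPKM in WT.

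The mitochondrial chaperones and proteases differed little between the genotypes. Of the 8, 2 were higher and 6 lower in KO, with a median log2 difference of -0.09, and 0 passed the test. The 5-sample differences ran from -0.36 (Hspe1) to 0.06 (Lonp1). KO replicate 1 was below all WT libraries in FPKM for 7 of the 8, all but Clpp, where this held for 37.4% of all genes. The margin was small for Lonp1, Hspe1 and Trap1, and FPKM were not scaled by TMM. Trap1, for example, was at 21.2 FPKM in KO replicate 1 and 21.5 FPKM in WT replicate 1. The median was -0.02 without KO replicate 1 and -0.14 with it as the lone KO sample.

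**Figure D3:**
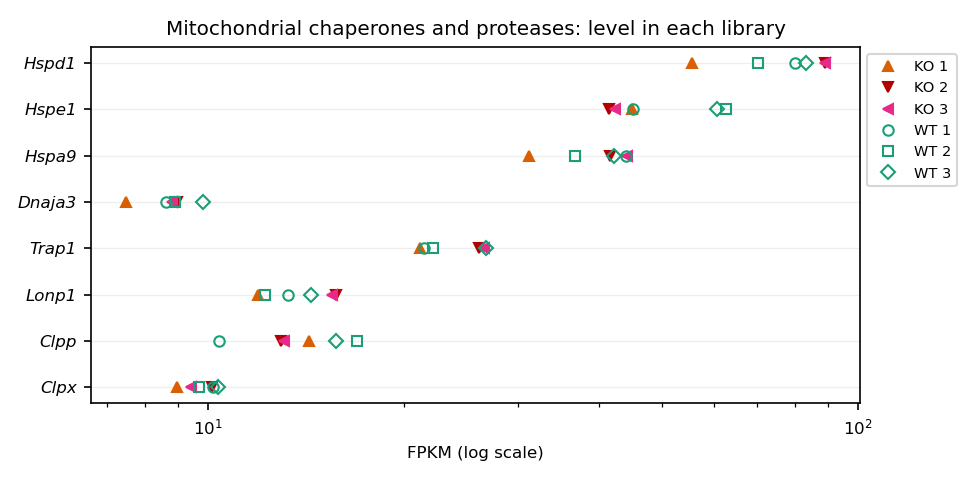
FPKM of the 8 mitochondrial chaperones and proteases (rows, log axis) in each library, with filled triangles for KO and open symbols for WT. Hspd1 spans 55.6 to 89.0 FPKM within the KO libraries, more than the WT libraries do (70.2 to 83.1 FPKM), and Hspe1 is the only gene of the 8 with all KO libraries under all WT libraries.

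Hspd1 and Hspe1 encode the matrix chaperonin HSP60 and its lid HSP10, and the genes lie head to head on opposite strands of chromosome 1. A stretch at their starts is shown because both genes share it. A heat shock element was searched as NGAANNTTCNNGAAN on both strands, and it was found in 0.597% of all windows and in 2 of the 32 member genes with a window, which were these neighbours at the same bases. The matched bases, with 2 overlapping matches, are in capitals and the sequence is RefSeq's for GRCm38.p6.
Hspd1-Hspe1, chr1:55088053-55088082, plus strand: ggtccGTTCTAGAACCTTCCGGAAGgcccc
Despite the shared stretch, the values of the 2 genes did not run in parallel. Hspd1 (ENSMUSG00000025980, 55077835 to 55088243) had 55.6, 89.0 and 89.0 FPKM in KO and 80.1, 70.2 and 83.1 FPKM in WT. KO replicate 1 was lower and KO replicates 2 and 3 higher than all WT libraries, and the log2 difference was -0.10 (SE 0.188, adjusted p = 0.902, edgeR). Hspe1 (ENSMUSG00000073676, 55088132 to 55091307) had 44.9, 41.4 and 42.3 FPKM in KO and 45.0, 62.8 and 60.8 FPKM in WT. WT replicate 1 lay at the KO level, the groups overlapped after TMM scaling, and the log2 difference was -0.36 (SE 0.190, adjusted p = 0.482, edgeR). The annotated genes overlap at their starts, so reads there could have been counted for either.

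The remaining chaperones were Hspa9, the matrix HSP70 that pulls in and folds imported proteins, its co-chaperone Dnaja3, and Trap1, the mitochondrial HSP90. Their log2 differences were -0.13, -0.14 and 0.03. KO replicate 1 was below all WT libraries in FPKM in each, though only just for Trap1. Hspa9 was at 31.2 FPKM in KO replicate 1, against 36.8 to 44.0 FPKM in WT. Dnaja3 overlaps Coro7 and Vasn and is uncertain for that reason. Among the proteases, Lonp1 (ENSMUSG00000041168, chromosome 17, 56614297 to 56626887), which degrades oxidised matrix proteins, had 11.96, 15.7 and 15.5 FPKM in KO and 13.3, 12.2 and 14.4 FPKM in WT. In FPKM, KO replicate 1 was lowest and KO replicates 2 and 3 highest, as for Hspd1. For Lonp1, however, KO replicate 1 was only just below WT replicate 2. The log2 difference of Lonp1 was 0.06 (SE 0.138, adjusted p = 0.914, edgeR). Clpp, the peptidase of the ClpXP complex, and Clpx, its unfoldase, had log2 differences of -0.06 and -0.09. Of 16 other mitochondrial chaperones and proteases, 8 were higher and 8 lower, with a median log2 difference of 0.002, and none passed the adjusted threshold. Phb, Afg3l2 and Parl had the smallest unadjusted p, at -0.19, -0.19 and 0.18.

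**Figure D4:**
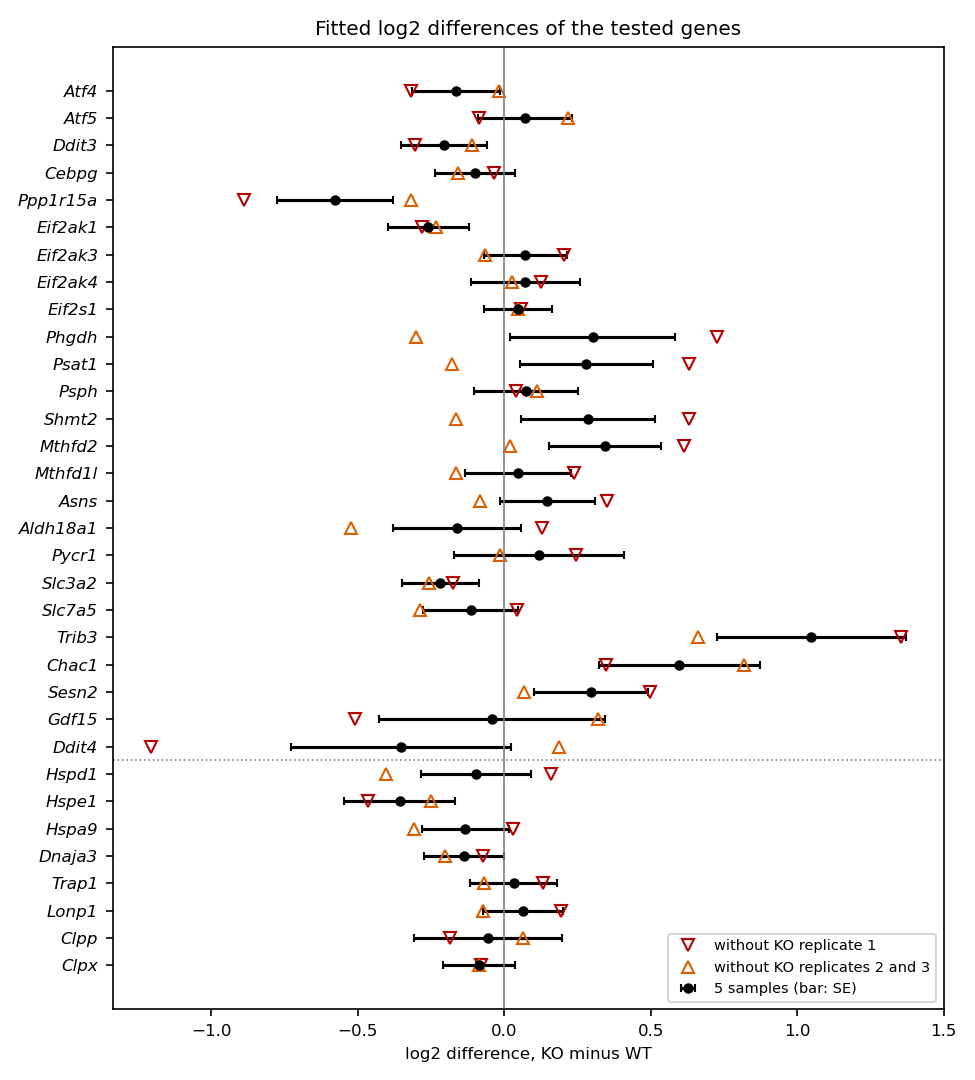
Fitted log2 differences (KO minus WT) of the 33 tested members, with black points and SE bars for the 5-sample fit, red triangles without KO replicate 1 and orange triangles with KO replicate 1 as the only KO sample. Trib3 (1.05) and Ppp1r15a (-0.58) keep their side of 0 in all 3 fits, whereas Phgdh, Psat1, Shmt2 and Ddit4 change sides.

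The precision of the comparison was limited by the number of samples. The median SE of the log2 differences was 0.181 over the tested members, and the median distance of KO replicate 1 from KO replicates 2 and 3 was 0.382 on the log2 FPKM scale. Between KO replicates 2 and 3 the corresponding median was 0.0453. A difference that did not pass the test is therefore not shown to be absent.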

How the data were processed

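Cartilage RNA was captured with oligo(dT) beads and made into strand-specific libraries with molecular identifiers. Per the submitters' processing notes, tools named for the series included cutadapt 1.9, HISAT2 2.0.4, UMI-tools and StringTie 1.3.4d. The authors deposited, for each library, FPKM values and whole-number gene counts. The deposited counts were treated as estimated counts, since what a count stands for was not stated and low values were in excess at 4 (6596 values, against 4170 at 3 and 2332 at 5). Positions followed GRCm38. The knocked-out gene is not reported here. Groups came from the sample titles, and 0 per-sample columns were left unused.

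KO replicates 2 and 3 differed by a noise ratio of 5.77 (1 for Poisson sampling), against 23.8 to 85.0 for other pairs. They were counted as 1 sample, with rounded mean counts. edgeR 4.0.16 (R 4.3.3; TMM scaling, quasi-likelihood test, Benjamini-Hochberg adjustment over the 15373 genes whose libraries averaged 0.5 FPKM or more, threshold 0.05) gave log2 differences, KO minus WT. It was also run on simulated counts drawn with the same spread for every gene. These libraries differ in ways that such counts do not, so that run does not show how the test performs on them. Values printed per library are FPKM, which are scaled to library size but not by TMM, and non-overlap was read from them. All members are named, with values per library for 6 chosen genes, for the 12 with the smallest unadjusted p, and for those whose KO replicate 1 lay more than 1 (log2) from the other KO libraries, and up to 3 genes of each other list by smallest unadjusted p. The members and lists were chosen with earlier results of these data known. Alternatives were the 6 libraries as labelled, a replicate block, other scalings and filters, DESeq2 1.42.0, limma 3.58.1 on log2(FPKM + 1) and log2(FPKM + 0.1), counts divided by 4, and each library left out. Promoter windows (around each annotated start) were RefSeq's for GRCm38.p6, with no entry used for Slc7a5 and Hspa9.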

Additional observations from a re-analysis of the deposited data

How the results depend on the processing

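Under every alternative 0 members passed the adjusted threshold, and the lowest adjusted p of a member was 0.0572 (edgeR, Ppp1r15a without KO replicate 1). The number of all genes called, 0 in the 5-sample fit, was 570 with the 6 libraries as labelled, 21 with no filter and 879 with DESeq2, and it ranged from 0 to 352 when libraries were left out, the highest without KO replicate 1, with 9 without KO replicates 2 and 3 and 1 without WT replicate 2 or WT replicate 3. The cause was not tested. Fits with 1 KO sample assume that it varies like the WT libraries. Replicate numbers did not pair the libraries (correlations of deviations -0.207, -0.184 and 0.001), and with a replicate block on the 6 libraries 0 genes passed, with a median of 0.06 for the ATF4 pathway genes. That median was -0.001 at a minimum of 5 FPKM.

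Of 555 member values under the alternatives, 526 kept their sign and 29 did not, in 19 members. With no scaling beyond the library total, Trap1 was at -0.0083, and at a minimum of 5 FPKM Trap1 was at -0.013 and Mthfd1l at -0.00097. The other reversals came from leaving out libraries, with log2 ranges for Atf5 (-0.085 to 0.22), Asns (-0.083 to 0.35), Phgdh (-0.30 to 0.73), Psat1 (-0.18 to 0.63), Psph (-0.010 to 0.16), Shmt2 (-0.16 to 0.63), Mthfd1l (-0.17 to 0.24), Aldh18a1 (-0.52 to 0.13), Pycr1 (-0.061 to 0.24), Gdf15 (-0.51 to 0.32), Eif2ak3 (-0.067 to 0.20), Eif2ak4 (-0.039 to 0.19), Slc7a5 (-0.29 to 0.045), Ddit4 (-1.21 to 0.19), Hspd1 (-0.40 to 0.16), Hspa9 (-0.31 to 0.031), Lonp1 (-0.073 to 0.19), Clpp (-0.26 to 0.11) and Trap1 (-0.068 to 0.14). The medians ranged from -0.07 to 0.12 (ATF4 pathway) and from -0.14 to -0.02 (chaperones and proteases) over these settings.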

Other observations

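Chaperones of neighbouring compartments were read the same way. Of 17 genes for chaperones and sensors of the endoplasmic reticulum, 16 were higher and 1 lower in KO, with a median log2 difference of 0.20 against -0.02 over all genes, and 0 passed the adjusted threshold by edgeR on the 5 samples or on the 6 libraries as labelled. At an unadjusted p under 0.05 (edgeR), 1 of the 17 was higher in KO (all genes 7.63%) and 0 were lower (all genes 6.07%). KO replicates 2 and 3 alone exceeded all WT libraries in 13 of the 17, where 18.8% of all genes did so. The median was 0.37 without KO replicate 1 and -0.009 with it as the only KO sample. Sdf2l1, a cofactor of the chaperone BiP, had 33.6, 51.5 and 49.9 FPKM in KO replicates 1 to 3 and 22.8, 32.6 and 24.9 FPKM in WT replicates 1 to 3. All KO libraries were above all WT libraries, at a log2 difference of 0.66 (SE 0.226, adjusted p = 0.269, edgeR). Xbp1, a transcription factor of the unfolded protein response that secretory cells need, was at 0.31 and Edem1, which sends misfolded glycoproteins to degradation, at 0.35. Markers of plasma cells, which are secretory cells, summed to 150.3 FPKM in KO replicate 1 and 186.7 and 195.4 FPKM in KO replicates 2 and 3. In WT they summed to 194.8 to 260.9 FPKM, so the sums overlapped only just, and Jchain was the largest term. Of the 6 markers, 5 were lower in KO. For 2 of them, Mzb1 and Sdc1, all KO libraries were under all WT libraries (all genes 13.7%). None passed the adjusted threshold on the 5 samples, and 1 did with the 6 libraries as labelled (all genes 3.71%). The part of plasma cells and neutrophils in these values was not tested.

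Of 12 cytosolic heat shock and chaperonin genes, 2 were higher and 10 lower in KO, with a median log2 difference of -0.03, and 0 passed the adjusted threshold. Bag3, an HSP70 cofactor, was at -0.23, Hsph1, a nucleotide exchange factor of HSP70, at -0.22 and Dnajb1, an HSP40, at -0.17. KO replicates 2 and 3 alone exceeded all WT libraries in 6 of the 12 (all genes 18.8%), and the median was 0.008 without KO replicate 1 and -0.14 with it as the only KO sample.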
